A study of Mus musculus with 6 samples.

Results

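Dab1, Plxnc1, Sema3d and Gfra2 are 4 mouse genes of axon guidance and trophic signalling that stand on a list, deposited by the authors, of probe sets higher in muscle spindle (MS) than in Golgi tendon organ (GTO) sensory neurons. They were taken by gene symbol, with every probe set that the list gives for them. This made 6 probe sets (2 for Dab1, 2 for Plxnc1, 1 for Sema3d and 1 for Gfra2) of 626 on the list and 45101 on the array (the rule of the list thus took 1.39% of all probe sets), and 4 genes of the 570 that the list names. Only Plxnc1 and Gfra2 encode receptors: Sema3d encodes a secreted cue and Dab1 an adaptor inside the cell.

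The study compared both classes of proprioceptive neuron, the sensory neurons that report muscle length from spindles (MS) and muscle tension from tendon organs (GTO). All animals carried Egr3::WGA-cherry, PV:Cre and Thy1-lsl-YFP on a mixed C57bl/129sv background, were male and female, and were 7 to 10 days old. Dorsal root ganglia were dissociated and sorted by fluorescence: neurons with both Cherry and YFP were taken as MS, and neurons with YFP but no Cherry as GTO. Neurons of several sorts were pooled into 3 MS samples of about 1250 neurons and 3 GTO samples of about 725, each measured on 1 array after amplification of the RNA. The GTO class was thus defined by the lack of a label, YFP depended on a parvalbumin Cre that can also act in some cutaneous mechanoreceptors, and the labels call both populations enriched, not pure. Of 10 proprioceptor markers, 1 (Whrn) can be named in the files used here. On the log2 scale of the arrays, where bacterial controls without a target in mouse RNA read up to 2.89, Whrn read 3.15, 5.11 and 6.61 in the MS samples and 2.31, 2.35 and 2.28 in the GTO samples, so the 1 marker that can be read was near background in all GTO samples and in MS sample 1. Whrn can be named only because it stands on the list, which was selected as higher in MS. Its lower GTO values come with that selection, so they do not check which neurons were sorted. The other 9 markers could not be read.

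Semaphorins are guidance cues that steer growing axons, mostly by repulsion, through plexin receptors. Semaphorin and plexin signalling is known to shape the path of proprioceptive axons in the spinal cord and their contacts with motor neurons. Ligands of the GDNF family sustain sensory neurons through Ret, a receptor tyrosine kinase that needs a co-receptor of the Gfra family, and Reelin, an extracellular protein that positions neurons, signals through the receptors Vldlr and Lrp8 to Dab1.

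The DNA before the start sites is shown for the 3 genes with an entry in the RefSeq promoter table (GRCm38.p6), because these genes were higher in the same samples and the table gives a place to look for motifs of the factor families of Etv1, Runx3 and Egr3, which act in proprioceptors or muscle spindles. Each window held the 250 bases before a start site. It was searched on both strands for the ETS core CCGGAA, the RUNX motif TGTGGT and the EGR motif GCGTGGG; the searched motifs do not overlap one another in the matches found. Only bases outside the gene's annotated span are printed, 5′ to 3′ on the strand of the gene, with matches in capitals.
Dab1 chr4:103619250-103619499 (+ strand): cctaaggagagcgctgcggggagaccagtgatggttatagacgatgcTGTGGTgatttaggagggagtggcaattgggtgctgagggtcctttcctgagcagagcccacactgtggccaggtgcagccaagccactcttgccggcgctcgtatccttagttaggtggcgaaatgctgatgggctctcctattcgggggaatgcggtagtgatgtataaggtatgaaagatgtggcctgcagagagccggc
Sema3d chr5:12382916-12383160 (+ strand): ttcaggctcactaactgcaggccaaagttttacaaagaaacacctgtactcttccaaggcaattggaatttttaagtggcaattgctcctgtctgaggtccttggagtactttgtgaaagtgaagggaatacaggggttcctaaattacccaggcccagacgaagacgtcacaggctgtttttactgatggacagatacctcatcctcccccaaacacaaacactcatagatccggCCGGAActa
Plxnc1 chr10:94945016-94945095 (- strand): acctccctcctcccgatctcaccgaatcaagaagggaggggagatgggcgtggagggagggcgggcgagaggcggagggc
In Sema3d the capitals mark an ETS core that ends 9 bases before the start site, and in Dab1 a RUNX motif that begins 203 bases before the outer start site. The Plxnc1 window had no match to the 3 motifs. A second Dab1 start site lies inside the gene, at position 104367538 of chromosome 4, and its window, which is not printed, held 1 ETS core in the reverse direction (TTCCGG), 140 to 135 bases before the start. Over all 32851 windows of the table, 12.0% held the ETS core, 14.0% the RUNX motif and 4.3% the EGR motif. The inner Dab1 window was 78.0% G or C, more than 97.9% of all windows, and the outer was 56.4%, near the median of 52.4%. Plxnc1 stood at 68.8% and Sema3d at 46.8%. No binding was measured in this study, and a match is a description of the letters alone.

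All values below are the deposited log2 values. The bacterial control probe sets, which have no target in mouse RNA and were 15 in number, read between 1.86 and 2.89, and log2 4 is used as the level below which a value counts as low. The list was selected on the contrast of MS with GTO, with a floor of 5-fold and p-values under 0.08 as the file headers state, so the differences of its members describe that selection and carry no test here. The spread between pools is given as the SD over 3 arrays, and the SE of a difference is taken from both SDs. Arrays also differed in their signal. The upper quartile of all probe sets ran from 6.78 to 6.86 over the MS arrays, and for GTO it was 6.67, 6.20 and 5.55 in array order. The median, which lies among probe sets near background, ran the other way, from 2.82 to 2.83 for MS and from 2.88 to 3.01 for GTO. The number of neurons per sample follows the groups, so it cannot be told apart from the neuron class. Fewer cells of a type in a sample and less RNA per cell cannot be told apart either.

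Sema3d, the secreted cue, read higher on every MS array, and its MS values lay close together. Probe set 1453148_at read, in array order, 7.86, 8.02 and 8.19 for MS and 4.74, 4.34 and 5.74 for GTO. Every MS array lay above every GTO array, with 2.12 between the lowest MS and the highest GTO value, and no array was under log2 4. The means were 8.02 ± 0.17 in MS and 4.94 ± 0.72 in GTO (SD, n = 3), a log2 difference of 3.08 ± 0.43 (SE), and the fold in the authors' deposited table was 8.46. The highest GTO value was on GTO array 3, the array with the lowest upper quartile. Among all probe sets of an array, Sema3d stood at the 67.1 to 75.7 percentile on the GTO arrays and at the 80.0 to 82.1 percentile on the MS arrays. From 64.0% to 66.9% of probe sets on the GTO arrays read under log2 4, so a percentile of 67.1 lies little above that level. The gene lies on chromosome 5 (12383161 to 12588953, GRCm38.p6).

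Plxnc1, a plexin that is the receptor of the membrane-bound semaphorin Sema7a, had 2 listed probe sets that did not give the same picture. With 1450905_at the MS arrays read 8.96, 10.28 and 7.95 and the GTO arrays 5.05, 3.33 and 5.54. The groups did not overlap and were 2.40 apart at their nearest, although the MS values themselves spanned more than 2 log2 units. With 1423214_at the MS arrays read 8.02, 6.83 and 6.06 and the GTO arrays 6.16, 3.11 and 3.50. Here the groups overlapped, since GTO array 1 lay 0.11 above MS array 3. The first probe set differed by 4.42 ± 0.95 and the second by 2.71 ± 1.11 (log2, SE, n = 3), with folds of 21.5 and 6.54 in the authors' deposited table. The arrays were ordered differently as well: MS array 2 was the highest MS array for 1450905_at and MS array 1 for 1423214_at, while GTO array 3 was the highest GTO array for the first and GTO array 1 for the second. The positions of the probes in the Plxnc1 transcript were not used here. The gene lies on the minus strand of chromosome 10 (94790866 to 94945015, GRCm38.p6).

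Gfra2, the co-receptor that binds neurturin and presents it to Ret, read far above log2 4 on all arrays, with a wide spread among the GTO arrays. Probe set 1425579_at read 12.28, 12.43 and 12.19 on the MS arrays and 11.43, 7.77 and 10.04 on GTO arrays 1, 2 and 3. Gfra2 was thus detected in the sorted samples of both classes, which are enriched and not pure. The groups did not overlap, but GTO array 1 came within 0.76 of the lowest MS array. The means were 12.30 ± 0.12 and 9.75 ± 1.85 (SD, n = 3), so that the SD among GTO arrays was 15.1 times that among MS arrays. The log2 difference was 2.56 ± 1.07 (SE), with a fold of 5.88 and a p-value of 0.0751 in the authors' deposited table. Without GTO array 2 the difference fell to 1.57, and MS against GTO array 1 alone left 0.869. On the percentile scale Gfra2 stood at 97.3 to 97.5 on the MS arrays and at 95.7, 81.0 and 91.3 on the GTO arrays. The gene lies on chromosome 14 (70890107 to 70979840, GRCm38.p6).

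Dab1, the adaptor that is phosphorylated when Reelin binds its receptors, showed the largest differences of the 4 genes, and both of its probe sets gave them. Probe set 1435577_at read 8.65, 9.34 and 8.74 on the MS arrays and 4.24, 2.22 and 2.71 on the GTO arrays. Probe set 1435578_s_at read 9.36, 9.73 and 8.44 on the MS arrays and 4.50, 3.68 and 2.78 on the GTO arrays. Both separated the groups, by 4.41 and 3.94 between the lowest MS and highest GTO arrays, and both were under log2 4 on GTO arrays 2 and 3 and a little above it on GTO array 1. The log2 differences were 5.85 ± 0.65 and 5.53 ± 0.63 (SE, n = 3), and the folds in the authors' deposited table were 57.7 and 46.1, ranks 9 and 14 of the 626. Values that low have no reliable order, so the size of these differences depends on how low values are treated: with values under log2 4 set to 4, they were 4.83 and 5.01. Both probe sets target 1 gene and were hybridized with the same RNA, so they are not independent measurements. Dab1 lies on chromosome 4 (103619500 to 104744844, GRCm38.p6).

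**Figure D1:**
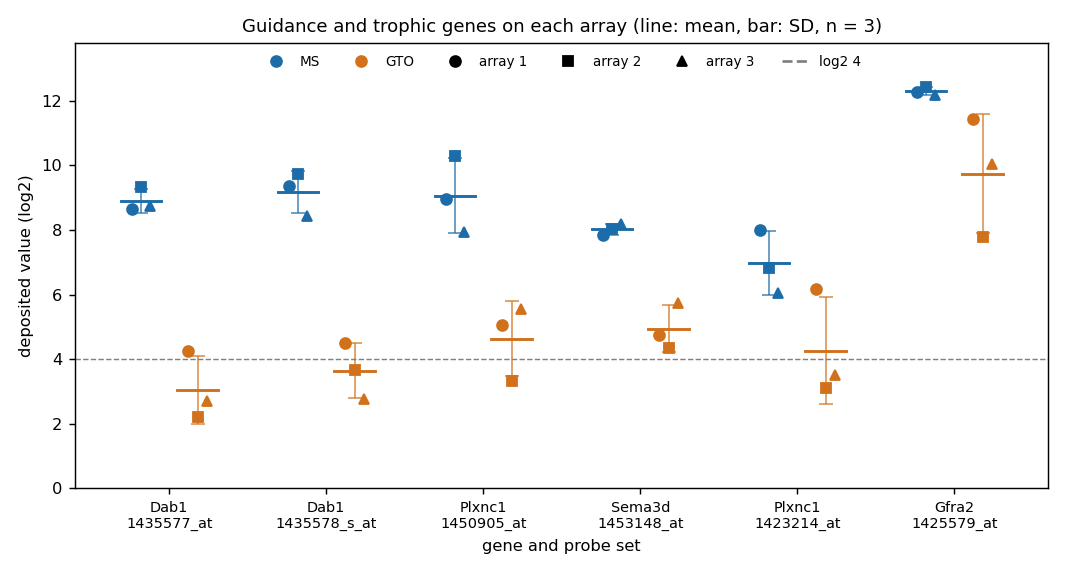
Deposited log2 value (y axis) of each probe set (x axis) on the 3 MS arrays (blue) and the 3 GTO arrays (orange); symbols mark the array number, short lines the group mean, bars the SD (n = 3) and the dashed line log2 4. MS values lie above GTO values for all but Plxnc1 1423214_at, where GTO array 1 at 6.16 exceeds MS array 3 at 6.06, and the Gfra2 GTO values spread from 7.77 to 11.43.

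The 4 genes did not share a single order among arrays. MS array 2 was the highest MS array for 4 of the 6 probe sets (Gfra2, 1450905_at of Plxnc1 and both of Dab1), MS array 1 for 1423214_at and MS array 3 for Sema3d. GTO array 1 was the highest GTO array for Gfra2, 1423214_at and both Dab1 probe sets, and GTO array 3 for Sema3d and 1450905_at. GTO array 2 was the lowest GTO array for Sema3d, Gfra2 and 1450905_at. For the other probe sets GTO arrays 2 and 3 were both under log2 4, and no order is read between them. Over the whole list MS array 2 was the highest MS array for 32.4% of the probe sets. GTO array 1 was the highest GTO array for 51.6% of them. With 6 probe sets of 4 genes, these counts are given as a description.

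**Figure D2:**
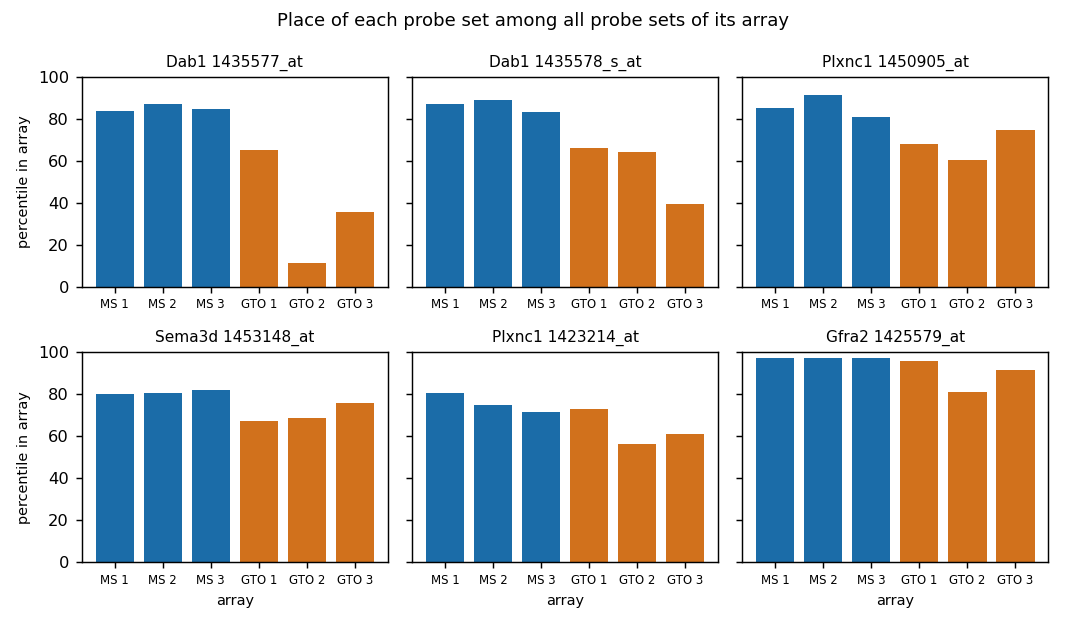
Percentile (y axis, 0 to 100) that each probe set reached among all 45037 probe sets other than controls on each of the 6 arrays (x axis; MS blue, GTO orange), a place that does not change when an array is rescaled as a whole. For Dab1 1435577_at the bars drop from 84.0 to 87.3 on the MS arrays to 65.1, 11.2 and 35.7 on the GTO arrays, whereas for Gfra2 they stay at or above 81.0 on all arrays. From 64.0% to 66.9% of probe sets on the GTO arrays read under log2 4. The places of 11.2 and 35.7 thus lie among values with no reliable order, and the size of that drop is not read.

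Set against the 626 probe sets of the deposited list, the 4 genes reached from its top to near its lower edge. The log2 difference over the list had a median of 3.22 and a range of 2.32 to 7.15, and the median over the 6 probe sets was 3.75. The median over all 16256 probe sets tested was 0.31. The probe set 1450905_at of Plxnc1 ranked 83 by the deposited fold, Sema3d 358, 1423214_at 485 and Gfra2 546. The last 2 of these were also near the p-value edge, at 0.0720 and 0.0751 in the authors' deposited table. The smallest fold on the list was 5.01 and its largest p-value 0.0795. Just outside it, a probe set with no gene name in the files used here stopped just short of 5-fold with a p-value of 0.0740, and another reached 30.2-fold with a p-value of 0.0801.

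The groups did not overlap, with MS higher, for 5 of the 6 probe sets. Such separation was found for 9.9% of all 16256 probe sets tested and for 94.6% of the listed ones, and since the list was selected on this contrast nothing is read from the count. All 6 probe sets passed the filter on low values (log2 4 or more on at least 3 arrays). In the limma fit over all tested probe sets, 0 of the 6 passed a Benjamini-Hochberg adjusted p of 0.05 and 6 had an unadjusted p under 0.05; over all tested probe sets, 0.0185% passed the former and 6.48% the latter with MS higher. These counts too rest on the contrast that chose the genes.

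**Figure D3:**
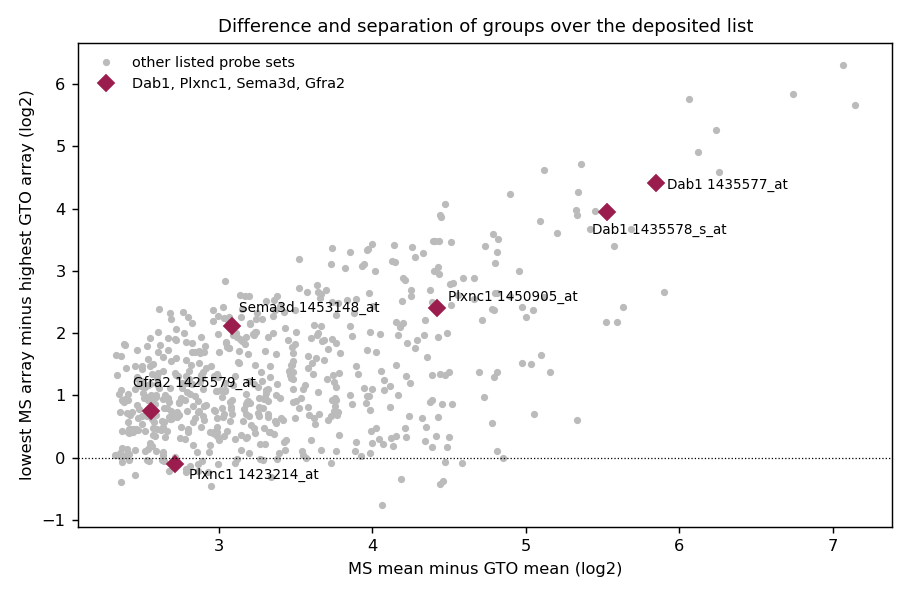
Mean MS minus mean GTO value (x axis, log2) against the lowest MS minus the highest GTO value (y axis, log2; above 0 the groups do not overlap) for the 626 listed probe sets in grey, with the 6 of Dab1, Plxnc1, Sema3d and Gfra2 as red diamonds. Dab1 sits at 5.85 and 5.53 on the x axis, toward the upper right, Gfra2 at 2.56 with a gap of 0.76, and Plxnc1 1423214_at just under 0.

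Rescaling the arrays lowered all 6 differences and reversed none. Centring takes the same amount from the difference of every probe set, and that amount is smaller than any of the 6. Both outcomes were thus fixed in advance for centring and say nothing of these genes. Quantile normalization, which lowered the median difference of all tested probe sets by 0.29, gave 5.78 and 5.31 for Dab1, 3.97 and 2.43 for Plxnc1, 2.38 for Sema3d and 2.40 for Gfra2. Centring each array on the median of its 16256 tested probe sets, which lowered the median difference by 0.37, gave 5.48 and 5.16 for Dab1, 4.05 and 2.34 for Plxnc1, 2.71 for Sema3d and 2.18 for Gfra2. Relative to that shift the Dab1 differences stayed above 5, while Gfra2 came under 5-fold. Against GTO array 1 alone, the GTO array with the highest upper quartile, Sema3d differed by 3.28 and Dab1 by 4.67 and 4.68, but 1423214_at of Plxnc1 by 0.805 and Gfra2 by 0.869. For Sema3d, both Dab1 probe sets and 1450905_at of Plxnc1, at 4.02, the difference from GTO array 1 was thus still more than 5-fold. This last comparison has 1 GTO array and no replicate on that side, and was chosen after the data had been seen.

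**Figure D4:**
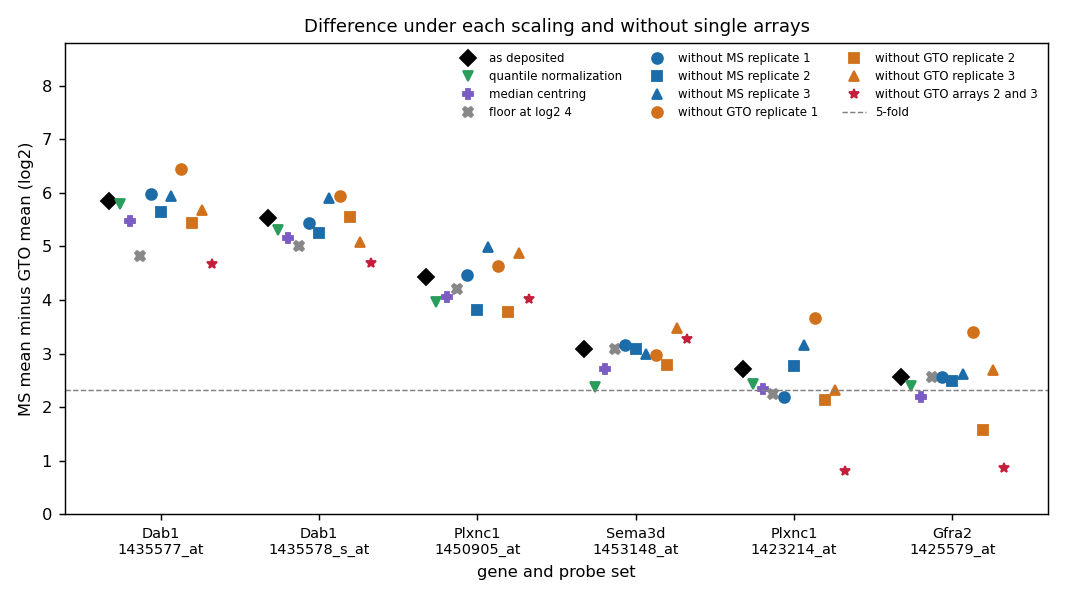
Mean MS minus mean GTO value (y axis, log2) of each probe set (x axis) with the values as deposited, after each rescaling, with a floor, and without arrays; the dashed line marks 5-fold. Dab1 stays at 4.67 or more in all settings shown, while Gfra2 drops to 1.57 without GTO replicate 2 and both Gfra2 and Plxnc1 1423214_at fall under 1 against GTO array 1 alone.

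Of 143 genes in 9 lists of guidance and trophic pathways, 10 stood on the deposited list, the 4 above included. Without these 4, which were taken from the list, it was 6 of 139. The list holds 1.39% of all probe sets, but a gene can have several probe sets and those outside the list are unnamed here, so no share per gene stands beside these counts and they do not show enrichment. The list names 570 genes, all selected as higher in MS, and probe sets outside it carry no gene name in the files used here. A gene that is not on it may therefore be alike in both classes, higher in GTO or not detected. Among 20 semaphorins, Sema3d and Sema4d were listed, and Plxnc1 was the 1 listed of 11 plexins and neuropilins. Among 11 GDNF family ligands and receptors Gfra2 was listed and its partner Ret and ligand Nrtn were not. Among 21 Reelin pathway genes Dab1, Crk and Mapt were listed, and neither Reln nor its receptors. Cntn2 and Itgb1 were listed of 16 genes of semaphorin signalling and Ptpn11 of 18 of Ret signalling. None of 9 neurotrophins and receptors, 18 netrins, Slits and Robos, or 22 ephrins and Eph receptors was listed.

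Sema4d, a membrane-bound semaphorin, read 8.75, 6.93 and 7.33 on the MS arrays and 5.72, 3.75 and 5.18 on the GTO arrays. The groups did not overlap, and the log2 difference of the means was 2.79. Crk, an adaptor that binds phosphorylated Dab1, read 9.30, 9.33 and 6.35 on the MS arrays and 5.36, 2.57 and 5.13 on the GTO arrays. Its groups did not overlap, but MS array 3 came within 1.00 of GTO array 1. Mapt, the microtubule protein tau, read 9.07, 8.34 and 6.32 on the MS arrays and 2.22, 2.28 and 6.65 on the GTO arrays. GTO array 3 lay above MS array 3 for Mapt, so the groups overlapped. These 3 genes too were chosen by the list on the same samples.

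**Figure D5:**
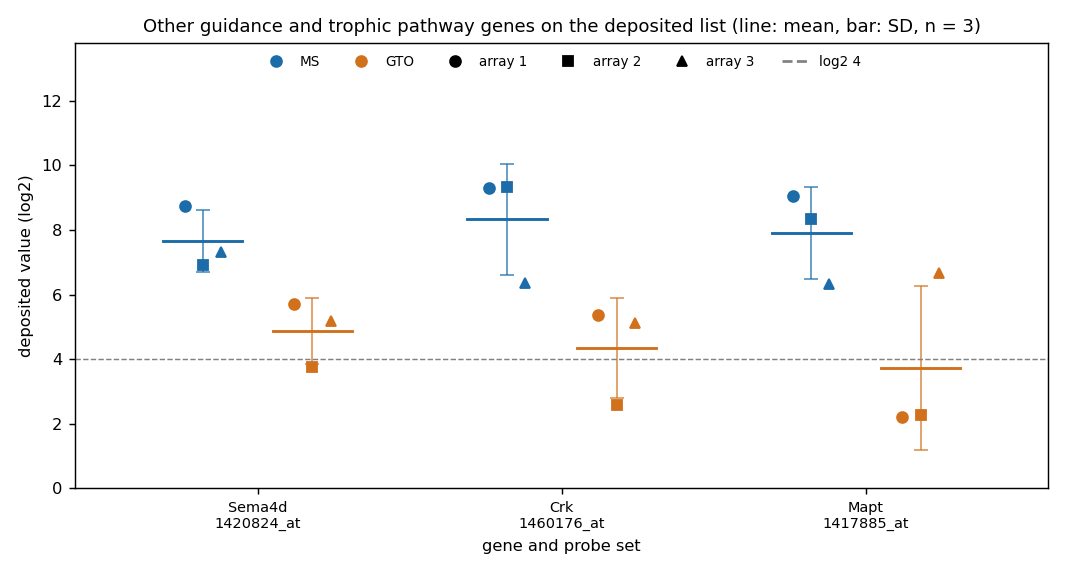
Deposited log2 value (y axis) of the other listed semaphorin and Reelin pathway genes (x axis) on each MS (blue) and GTO (orange) array, with means, SD bars (n = 3) and a dashed line at log2 4. Sema4d and Crk separate the groups, while Mapt on GTO array 3, at 6.65, lies above MS array 3, at 6.32.

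Plxnc1 and Gfra2 are also known from other sensory neurons, Plxnc1 from non-peptidergic nociceptors and Gfra2 from several classes that include rapidly adapting and C-fibre mechanoreceptors. Of 8 markers of non-peptidergic nociceptors, these 2 stood on the list, and of 6 C-fibre and 6 A-beta mechanoreceptor markers Gfra2 alone. Both genes were taken from the list, so nothing is read from these counts, and for the marker counts too no share per gene can be set beside the 1.39% of probe sets. Of 6 Schwann cell markers Mbp was listed, with 6.03, 7.18 and 5.98 on the MS arrays and 3.32, 2.49 and 2.65 on the GTO arrays. Of 5 fibroblast markers Sparc was listed, with 7.23, 9.32 and 9.13 on the MS arrays and 3.20, 4.23 and 3.40 on the GTO arrays. Both were higher in MS, as every probe set on the list is by its selection, so nothing is read from their sharing this direction with the 4 genes. No listed gene was among 4 peptidergic nociceptor, 4 satellite glia, 3 endothelial or 3 macrophage markers, which says nothing of their levels. Summed levels of the marker lists are not given because the other markers cannot be named. The part of other cell types in the differences of Plxnc1, Gfra2, Sema3d and Dab1 was not tested.

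The listed genes most like each of the 4 over the 6 arrays were taken by Pearson correlation of the deposited values, without a p-value. All listed probe sets share the contrast of MS with GTO, so high correlations come with the list, and the 6 arrays fall into 2 groups. For Dab1 (1435577_at) they were St7l (r = 0.998), Ddx46, which encodes an RNA helicase of splicing (0.994), and Ralgapa1, which encodes a subunit of a Ral GTPase-activating complex (0.993). For Plxnc1 (1450905_at) they were Taf4b, a subunit of the general transcription factor TFIID (0.991), Arl5b, a small GTPase (0.987), and Commd1 (0.984). For Sema3d they were Xiap, an inhibitor of caspases (0.988), the sodium channel gene Scn3a (0.981) and Pogk (0.973). For Gfra2 they were Dhdh (0.993), Ak3, a mitochondrial adenylate kinase (0.992), and Enc1 (0.985). Dab1 1435577_at, St7l and Ddx46 were all under log2 4 on GTO arrays 2 and 3. The ranking for Dab1 thus rests in part on values with no reliable order. The 3 genes most like Gfra2 were highest on GTO array 1 and lowest on GTO array 2, an order that comes with their choice by correlation. Dhdh read 6.38, 2.11 and 4.67 and Ak3 6.23, 3.03 and 5.26 on GTO arrays 1, 2 and 3. Scn3a, chosen in the same way for Sema3d, read 4.96, 3.41 and 5.16 there and, as Sema3d did, stood highest on GTO array 3.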

How the data were processed

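RNA of 3 MS and 3 GTO pools of sorted neurons was measured on 1 array each. The log2 values of 45101 probe sets were made and deposited by the authors; the submitters' processing notes name the programs GCRMA and Partek. The authors also deposited a list giving each probe set's p-value and linear fold (a ratio of MS over GTO); its F statistics and sums of squares, deposited scores, were not used. Raising 2 to the mean log2 difference gave each deposited fold within a relative 2.1e-05. For genome build and array annotation the sources used here state nothing; gene positions and promoters are from RefSeq, GRCm38.p6. Symbols were updated by Entrez identifier (584 of 591 probe sets with 1 symbol matched).

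Without 64 controls, the 16256 probe sets at log2 4 or more on at least 3 arrays were fitted with limma 3.58.1 in R 4.3.3 (lmFit, eBayes, two-sided, no covariate) and adjusted by Benjamini-Hochberg. The fit was tested on simulated data. Percentiles, means and correlations were computed in Python 3.11.15. The alternatives were quantile normalization, centring on the median of tested probe sets, a floor, other filters, an intensity trend, the replicate number as a block, and leaving out arrays. The labels call samples biological replicates; the number of animals per pool is not stated there, and p-values measure the spread between pools. The number of arrays limits the precision.

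Genes were named by rule: the 4 genes, the 3 most correlated listed genes for each, and listed semaphorin, plexin, GDNF family, Reelin, neurotrophin and ephrin genes. Cntn2, Itgb1, Ptpn11, Mbp, Sparc and Whrn were named because few of their lists were listed. The genes and lists were chosen with earlier results of these data known.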

Additional observations from a re-analysis of the deposited data

How the results depend on the processing

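Of 58 values of the 6 probe sets that an alternative could change, 52 moved by less than 1 SD between replicates, 6 by more, and none changed direction. Leaving out 1 of 3 arrays cannot shift a difference by 1 such SD. Median centring lowers every difference by the same 0.37, less than the smallest such SD of 0.524 (Sema3d). The values without 1 array or under median centring could thus only fall among the 52, with no change of direction. That count does not measure stability. The 6 were Sema3d under quantile normalization (2.38), Dab1 1435577_at with the floor at log2 4 (4.83), and, without GTO arrays 2 and 3 together (chosen after seeing the data), both Dab1 probe sets (4.67 and 4.68), Plxnc1 1423214_at (0.805) and Gfra2 (0.869). Leaving out 1 array at a time gave log2 differences of 5.43 to 6.44 and 5.09 to 5.95 for Dab1, 3.77 to 4.98 and 2.14 to 3.66 for Plxnc1, 2.78 to 3.48 for Sema3d and 1.57 to 3.40 for Gfra2, the lowest without GTO array 2. The count of probe sets with no overlap was 5 to 6, and it was 6 without MS array 3 and without GTO array 1. Leaving out arrays cannot lower this count, so those settings say nothing of its stability. Of all probe sets in limma, 3 passed; the count was 3 under quantile normalization, 12 with no filter, 11 with the filter at log2 6, and 0 under median centring, the floor at log2 4, the intensity trend, the replicate block, and without any 1 array (0 to 0), with 796 to 1786 at an unadjusted p under 0.05. None of the 6 probe sets passed in any of these fits, and 4 to 6 of them had an unadjusted p under 0.05. The replicate block cannot change a mean difference in this balanced design, so the 6 values of 5.85, 5.53, 4.42, 3.08, 2.71 and 2.56 under it say nothing of stability, nor do the values of Sema3d and Gfra2 with the floor, which have none under log2 4; arrays with the same number had correlations of deviations of -0.06, 0.10 and 0.11, and MS array 1 correlated best with GTO array 2 (0.09), so the numbers were not taken to pair the samples. The cause of these changes was not tested. Values below log2 4, as for Dab1 on GTO arrays 2 and 3, lie near the background, so differences that rest on them are limited by it.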
